A study of Mus musculus with 8 samples.

Results

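A set of 10 genes that mark microglia and macrophages, or that such cells switch on when they take up dying material, was followed in embryonic cerebral cortex with and without Taf8. The genes are Cx3cr1, Csf1r, C1qa, C1qb, C1qc, P2ry12, Trem2, Lyz2, Lpl and Cd63. They were chosen by name, as a list of microglial and phagocyte genes, and are 10 of the 27179 genes in the count matrix. All 10 were found and all 10 had enough reads to be tested, among 16074 genes tested.

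Microglia are the resident macrophages of the brain. They enter the embryonic brain from the yolk sac, live on signals through the receptor CSF1R, and clear dying cells and debris while the cortex is being built. Complement C1q is the starting component of the classical complement cascade and can tag material for uptake, and microglia are its main source in the brain. Related macrophages sit at the borders of the brain, in the meninges, around vessels and in the choroid plexus, and share most of their genes with microglia.

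The cerebral cortices of 8 mouse embryos were taken for RNA sequencing, with 1 library per embryo. In 4 embryos Taf8 was deleted, with the genotype Taf8 -/lox: 1 null allele and 1 allele flanked by loxP sites. The other 4 embryos had intact Taf8, with the genotype Taf8 +/+, and carried neither of those alleles. TAF8 is a subunit of TFIID, the general factor that places RNA polymerase II at promoters. The labels name neither the stage of the embryos nor the recombinase or the cells in which it was active. The 4 deleted embryos have animal numbers with 4 different stems and the intact embryos share 2 others, so that whatever the stem stands for and the genotype cannot be told apart. The question set for these genes was whether uptake of dying cells was accompanied by higher levels of them.

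Each library held 39590959 to 44788200 counts. Levels are given as CPM, counts relative to the library total, scaled between libraries with the trimmed mean of M values (TMM), and log2 fold changes are deleted minus intact with their standard error (SE). A gene was called changed when edgeR's quasi-likelihood test gave a p-value below 0.05 after Benjamini-Hochberg adjustment across the genes tested. Taf8 itself had 0.657, 0.318, 0.655 and 0.349 CPM in the deleted cortices, against 34.7, 32.6, 29.7 and 33.3 CPM in the intact cortices, in keeping with their labels. Most genes changed: 30.6% of those tested were called higher and 32.9% lower, 63.5% in either direction, and 57.7% had groups that did not overlap. The median log2 fold change of all genes tested was 0.0001. Markers of the cerebral cortex were abundant in every library, with summed levels of 2316 to 2434 CPM in the deleted cortices and 3039 to 3173 CPM in the intact cortices. Of 10 markers of other regions of the nervous system 8 were too low to be tested and none was called. These 10 summed to 35.5 to 38.4 CPM in the deleted cortices and 34.9 to 44.7 CPM in the intact ones, mostly from Six3.

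The 10 genes did not move as a group. Lyz2, C1qc, C1qb, Trem2 and Csf1r rose, Lpl, Cd63 and Cx3cr1 fell, and C1qa and P2ry12 did not pass the test. The share called higher was thus 5 of 10, beside 30.6% of all genes tested, and the share called lower was 3 of 10, beside 32.9%. In 6 of the 10 genes no deleted cortex overlapped an intact one, beside 57.7% of all genes tested. The median log2 fold change of the 10 genes was 0.28. In whole tissue, fewer cells of a type and less RNA per cell cannot be told apart.

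**Figure D1:**
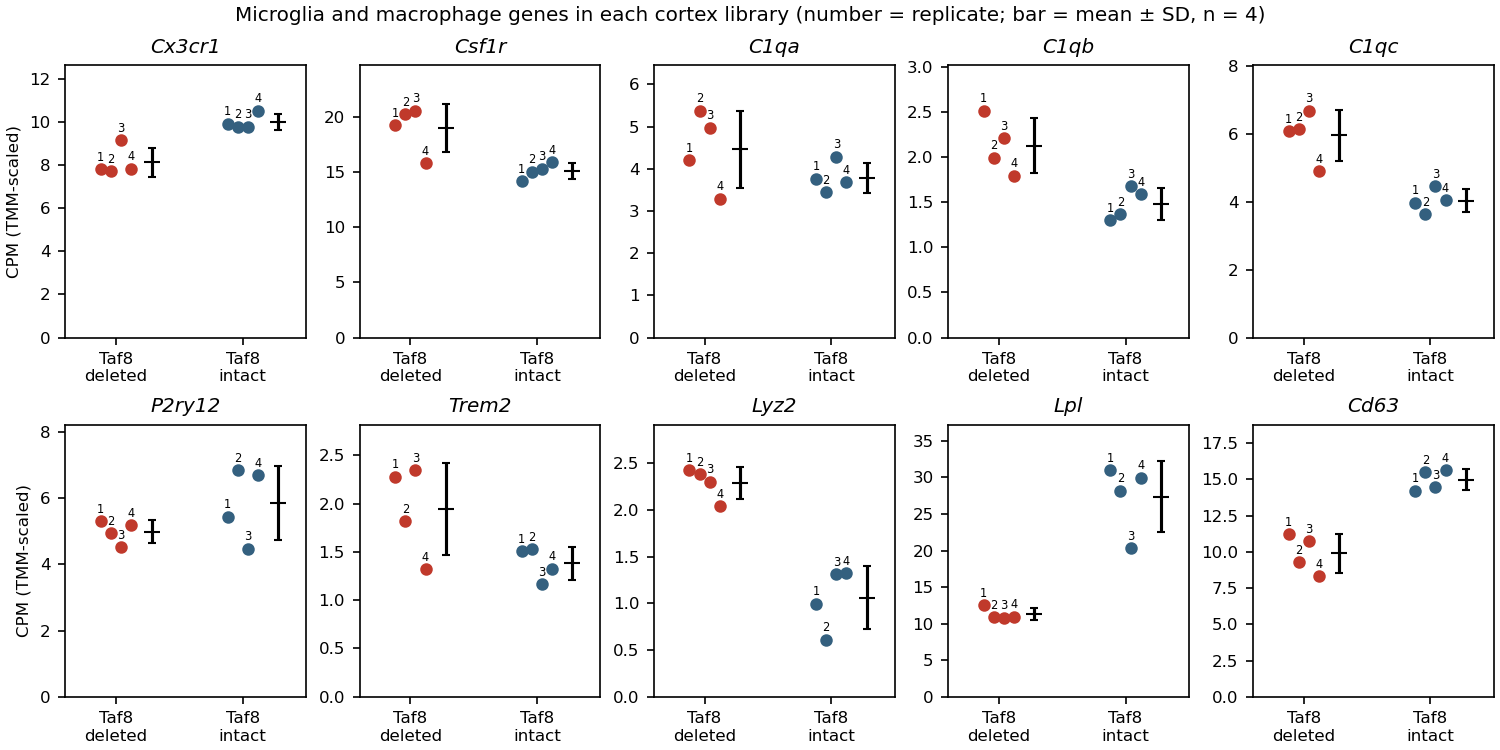
The level of each of the 10 genes in each of the 8 libraries, in TMM-scaled CPM on axes that start at 0, with the deleted cortices left of the intact ones. Points are single embryos with their replicate number, and bars are the mean and SD of 4 embryos. Lyz2, C1qb and C1qc lie higher in every deleted cortex than in any intact one, Cx3cr1, Lpl and Cd63 lie lower, and the other 4 genes overlap.

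The receptors by which microglia are recognised split in direction. Cx3cr1, the fractalkine receptor and a standard marker of microglia, lies on chromosome 9 (GRCm38, 120048683 to 120068296, minus strand). It had 7.82, 7.71, 9.15 and 7.83 CPM in the deleted cortices, against 9.92, 9.78, 9.78 and 10.5 CPM in the intact cortices. All 4 deleted cortices were below all 4 intact ones, with replicate 3 the highest of the deleted. The log2 fold change was -0.30 ± 0.07 (SE, n = 4 each, edgeR adjusted p = 0.00352), which is a level 1.23-fold lower.

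Csf1r, the receptor for the survival factors CSF1 and IL-34, lies on chromosome 18 (61105572 to 61131139, plus strand) and went the other way. It had 19.3, 20.3, 20.6 and 15.8 CPM in the deleted cortices, against 14.2, 15.1, 15.3 and 15.9 CPM in the intact cortices. Deleted replicate 4 fell within the range of the intact cortices, and the other 3 deleted cortices were above it. Csf1r rose by a log2 fold change of 0.33 ± 0.08 (SE, edgeR adjusted p = 0.00304). Without deleted replicates 2 and 3, the embryos with the most RNA of meningeal markers, the change was 0.22 (edgeR adjusted p = 0.0634). The reads were counted without regard to strand, and 873 of the 5774 exonic bases annotated for Csf1r also belong to Hmgxb3 on the opposite strand, which averaged 85.8 CPM in the deleted cortices and 77.7 CPM in the intact ones. Reads from that stretch cannot be told apart.

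P2ry12, the ADP receptor that guides microglial processes and is lost from activated microglia, lies on chromosome 3 (59216271 to 59262985, minus strand). It had 5.30, 4.95, 4.52 and 5.19 CPM in the deleted cortices, against 5.44, 6.86, 4.48 and 6.69 CPM in the intact cortices. The groups overlapped through intact replicate 3, the lowest of the 8 libraries. The log2 fold change of -0.23 ± 0.13 (SE) did not pass the test (edgeR adjusted p = 0.134). Without intact replicate 3 it was -0.34 and did pass (edgeR adjusted p = 0.0161). Of the 2546 exonic bases annotated for P2ry12, 9 also belong to Med12l on the opposite strand. Med12l averaged 33.6 CPM in the deleted cortices and 41.8 CPM in the intact ones. Whether its RNA added to the counts of P2ry12 was not tested.

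Trem2, a receptor for lipids and apoptotic cells on microglia, had the fewest counts of the receptors, with 53 to 104 counts in the deleted libraries and 48 to 65 in the intact ones. It lies on chromosome 17 (48346401 to 48352276, plus strand), 844080 bases beyond the end of Taf8. Its level was 2.28, 1.82, 2.35 and 1.32 CPM in the deleted cortices, against 1.51, 1.53, 1.17 and 1.33 CPM in the intact cortices. Deleted replicate 4 lay among the intact cortices and the other 3 deleted cortices above them. Trem2 rose by a log2 fold change of 0.49 ± 0.19 (SE, edgeR adjusted p = 0.0411). That call was lost when any of 6 single libraries was left out, with adjusted p = 0.0983, 0.0506 and 0.115 without deleted replicate 1, 2 or 3 and 0.0531, 0.0902 and 0.0759 without intact replicate 1, 3 or 4.

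The 3 chains of C1q are encoded side by side, on the minus strand of chromosome 4 within 18718 bases: C1qb from 136880126 to 136886200, C1qc from 136889801 to 136892936 and C1qa from 136895916 to 136898844. C1qb and C1qc rose and C1qa did not pass the test. C1qc had 6.09, 6.15, 6.69 and 4.91 CPM in the deleted cortices, against 3.97, 3.63, 4.45 and 4.06 CPM in the intact cortices. C1qb had 2.52, 2.00, 2.21 and 1.80 CPM in the deleted cortices, against 1.30, 1.37, 1.68 and 1.59 CPM in the intact cortices. For both chains the groups did not overlap and deleted replicate 4 was the lowest of the deleted. The log2 fold changes were 0.57 ± 0.11 for C1qc (SE, edgeR adjusted p = 0.000722) and 0.52 ± 0.15 for C1qb (SE, edgeR adjusted p = 0.00983).

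C1qa had 4.21, 5.38, 4.97 and 3.29 CPM in the deleted cortices, against 3.77, 3.44, 4.28 and 3.68 CPM in the intact cortices. Deleted replicate 4 was the lowest of all 8 libraries, deleted replicates 2 and 3 were the highest, and the groups overlapped. Its log2 fold change was 0.24 ± 0.15 (SE, edgeR adjusted p = 0.173). It passed the test without deleted replicate 4, at 0.36 (adjusted p = 0.0203), and turned to -0.02 without deleted replicates 2 and 3 (adjusted p = 0.938).

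Lyz2, the lysozyme made by macrophages and other myeloid cells, rose the most of the 10 genes. It lies on chromosome 10 (117277541 to 117282272, minus strand). It had 2.43, 2.38, 2.30 and 2.04 CPM in the deleted cortices, against 0.999, 0.613, 1.31 and 1.33 CPM in the intact cortices. Every deleted cortex was above every intact one, and the spread was wider among the intact cortices. The log2 fold change was 1.11 ± 0.21 (SE, n = 4 each, edgeR adjusted p = 0.000579), a level 2.15-fold higher. Lyz1, its close paralog, had 0 to 4 counts in a library, and how reads that match both genes were counted is not stated.

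The bases upstream of the start site are shown for 4 of these genes, since 2 of them rose (Lyz2 and C1qb), 1 fell (Cx3cr1) and 1 did not pass the test (P2ry12). Each line gives the 250 bases before the annotated start, 5′ to 3′ on the strand of the gene, from RefSeq on GRCm38.p6. Capitals mark AGGAAGT or its reverse complement ACTTCCT, a form of the site that ETS factors such as PU.1, the myeloid master regulator, bind. The positions are chr10:117282273-117282522 for Lyz2, chr4:136886201-136886450 for C1qb, chr3:59262986-59263235 for P2ry12 and chr9:120068297-120068546 for Cx3cr1, all on the minus strand.
Lyz2: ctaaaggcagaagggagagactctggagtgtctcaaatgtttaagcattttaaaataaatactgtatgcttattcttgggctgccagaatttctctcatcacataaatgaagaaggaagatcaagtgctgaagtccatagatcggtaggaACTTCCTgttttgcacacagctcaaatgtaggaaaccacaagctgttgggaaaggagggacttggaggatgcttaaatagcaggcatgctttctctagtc
C1qb: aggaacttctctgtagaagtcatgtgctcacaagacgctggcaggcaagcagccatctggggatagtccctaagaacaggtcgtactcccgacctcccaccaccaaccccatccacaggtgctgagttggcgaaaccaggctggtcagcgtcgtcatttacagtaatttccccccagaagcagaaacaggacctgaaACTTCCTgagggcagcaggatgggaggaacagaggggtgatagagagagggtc
P2ry12: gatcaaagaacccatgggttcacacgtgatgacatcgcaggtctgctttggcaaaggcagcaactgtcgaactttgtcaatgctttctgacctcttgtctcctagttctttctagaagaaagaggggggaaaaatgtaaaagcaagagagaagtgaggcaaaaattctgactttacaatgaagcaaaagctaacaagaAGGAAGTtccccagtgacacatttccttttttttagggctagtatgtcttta
Cx3cr1: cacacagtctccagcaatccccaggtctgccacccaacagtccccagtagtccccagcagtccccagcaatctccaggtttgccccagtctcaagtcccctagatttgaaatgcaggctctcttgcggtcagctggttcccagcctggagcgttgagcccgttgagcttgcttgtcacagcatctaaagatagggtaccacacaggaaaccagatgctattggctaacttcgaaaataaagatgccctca
Those letters stand in the upstream sequences of Lyz2, C1qb and P2ry12 and not in that of Cx3cr1. The GGAA within them, without its flanking letters, was not marked and does stand in the Cx3cr1 sequence. In windows from 250 bases before to 50 after the start, on both strands, they were present in 4 of the 7 genes with an entry (P2ry12, C1qb, C1qc and Lyz2) and in 9.35% of 32851 promoters. The longer form GAGGAAGT, which contains them, was present in C1qc alone of the 7 and in 3.20% of all promoters, and TATAAA in none of the 7 and in 13.6% of all. The shorter form AGGAAGT was chosen after the sequences were seen. Trem2, which rose, and Cd63, which fell, also lacked it in the 250 bases before their starts, so that genes with and without it are found among those that rose. A match of letters is no measure of binding.

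Lpl, lipoprotein lipase, which releases fatty acids from lipoproteins and is high in phagocytic microglia but is made by neurons and other brain cells too, fell the most of the 10 genes. It lies on chromosome 8 (68880555 to 68906932, plus strand). It had 12.5, 10.8, 10.8 and 11.0 CPM in the deleted cortices, against 31.0, 28.2, 20.4 and 30.0 CPM in the intact cortices. The 4 deleted cortices were close together and the lowest intact one, replicate 3, was well above them. Lpl fell by 1.28 ± 0.12 on the log2 scale (SE, edgeR adjusted p = 7.93e-06), a level 2.43-fold lower.

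Cd63, a tetraspanin of late endosomes and lysosomes that most cell types make, also fell. It lies on chromosome 10 (128896231 to 128912822, plus strand). It had 11.2, 9.28, 10.7 and 8.30 CPM in the deleted cortices, against 14.2, 15.5, 14.5 and 15.7 CPM in the intact cortices. The groups did not overlap. The log2 fold change was -0.60 ± 0.09 (SE, edgeR adjusted p = 9.41e-05).

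Levels can be compared between genes only per length, as CPM per kilobase of counted exon (RPKM). In the deleted cortices the mean RPKM ran from 9.54 for Cd63 through 5.65 for C1qc, 4.90 for Csf1r, 4.12 for C1qa, 2.79 for Lpl, 2.18 for Cx3cr1, 2.17 for Lyz2, 2.13 for P2ry12 and 2.01 for C1qb to 1.78 for Trem2. Only the steps from Cd63 to C1qc and from Lpl to Cx3cr1 were wider than the spread of the embryos, and every other neighbouring pair in that order overlapped. In the intact cortices the order of mean RPKM was Cd63 at 14.4, Lpl at 6.76, Csf1r at 3.90, C1qc at 3.82, C1qa at 3.50, Cx3cr1 at 2.68, P2ry12 at 2.51, C1qb at 1.40, Trem2 at 1.27 and Lyz2 at 1.01. There the ranges of neighbours did not overlap after Cd63, Lpl, C1qa and P2ry12. Lpl thus stood in the fifth place in the deleted cortices and the second in the intact ones, and Lyz2 in the seventh and the last.

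Ratios of counts within 1 library do not depend on the scaling between libraries. They were chosen after the levels were seen and are given without a test. The ratio of Csf1r to Cx3cr1 counts was 2.46, 2.63, 2.25 and 2.02 in the deleted cortices, against 1.43, 1.54, 1.57 and 1.51 in the intact cortices. The ratio of C1qc to Cx3cr1 was 0.779, 0.797, 0.731 and 0.627 in the deleted cortices, against 0.400, 0.371, 0.455 and 0.385 in the intact cortices. The ratio of Lyz2 to Cx3cr1 was 0.311, 0.309, 0.252 and 0.261 in the deleted cortices, against 0.101, 0.0627, 0.134 and 0.126 in the intact cortices. In these 3 ratios every deleted cortex was above every intact one. For C1qc and Lyz2 this had to be so, since both were higher and Cx3cr1 lower in every deleted cortex. Their ratios thus add nothing to the levels. The ratio of P2ry12 to Cx3cr1 was 0.494 to 0.678 in the deleted cortices and 0.458 to 0.701 in the intact ones, and overlapped.

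**Figure D2:**
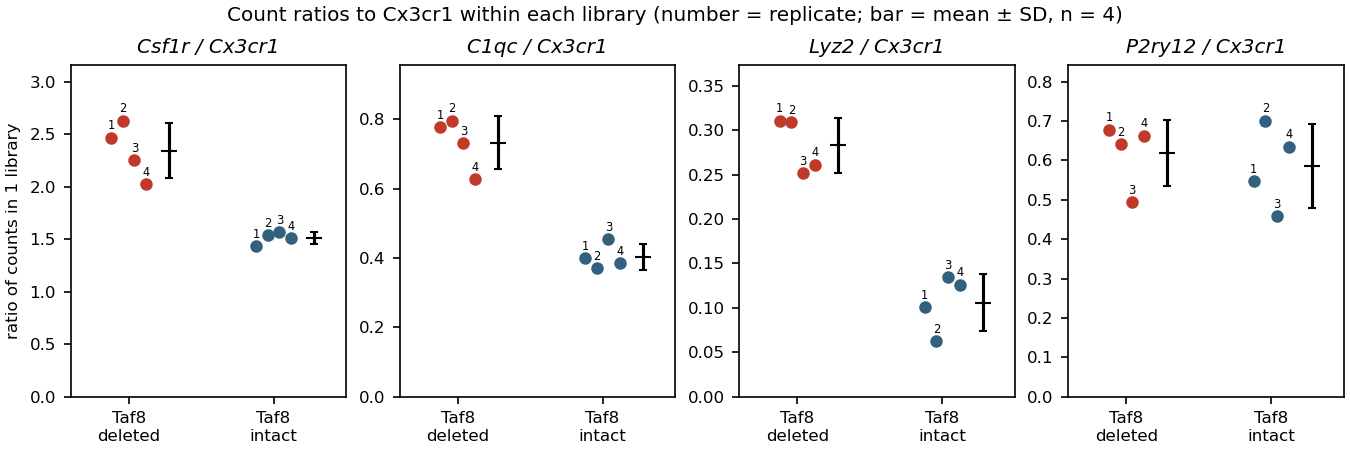
Ratios of raw counts to those of Cx3cr1 within each library, on axes that start at 0, with deleted cortices left of intact ones. Points are single embryos with their replicate number and bars are mean and SD of 4 embryos: Csf1r to Cx3cr1 averaged 2.34 ± 0.264 in the deleted cortices and 1.51 ± 0.0589 in the intact ones, and the ratio of P2ry12 overlapped.

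Other genes that define microglia mostly did not pass the test. Of 16 further microglia identity genes 15 were tested: 1 rose, 1 fell and 13 did not pass, beside 63.5% of all genes tested that were called in either direction, with a median log2 fold change of 0.08. Tmem119, a surface marker of microglia, averaged 1.55 ± 0.293 CPM in the deleted cortices and 1.57 ± 0.222 CPM in the intact ones (SD, n = 4 each). Gpr34, P2ry13 and Siglech had log2 fold changes of 0.08, 0.13 and -0.19, with adjusted p-values of 0.653, 0.562 and 0.432 (edgeR), from 44 to 105 counts a library. Ctss, the lysosomal protease cathepsin S, rose by 0.48 ± 0.17 (SE, edgeR adjusted p = 0.0260), a call that was lost when any of deleted replicates 2 and 3 or intact replicates 1 and 2 was left out. Olfml3, a secreted protein enriched in microglia, fell to 4.02 ± 0.422 CPM in the deleted cortices, against 6.08 ± 0.739 CPM in the intact ones (SD, n = 4 each, edgeR adjusted p = 0.000556). Without intact replicate 3 the number of identity genes called lower was 3, and without deleted replicate 4 the number called higher was 2.

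Of 25 genes shared by myeloid cells 24 were tested: 8 rose, 2 fell and 14 did not pass, with a median log2 fold change of 0.34. The share that rose was near the 30.6% of all genes tested that were called higher, while the share that fell was below the 32.9% called lower. Of the 24 log2 fold changes 20 were above 0, beside 8038 of the 16074 genes tested. With library totals alone 12 rose and 2 fell. Irf8, a transcription factor needed for microglia and macrophages, had 4.89, 4.76, 4.86 and 3.42 CPM in the deleted cortices, against 1.26, 1.79, 1.29 and 1.49 CPM in the intact cortices. The groups did not overlap and the log2 fold change was 1.62 ± 0.16 (SE, edgeR adjusted p = 2.57e-06). Fcgr1, the high-affinity IgG receptor, rose by 1.13 ± 0.16 (adjusted p = 5.77e-05), and Laptm5, a lysosomal protein of blood cells, by 0.39 ± 0.09 (adjusted p = 0.00177).

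Tyrobp, the adaptor through which TREM2 signals, rose by 0.52 ± 0.15 (SE, edgeR adjusted p = 0.00802). The genes that did not pass included Spi1, which encodes PU.1, at 0.16 ± 0.18 (adjusted p = 0.455), and Ptprc, the pan-leukocyte antigen CD45, at 0.10 ± 0.19 (adjusted p = 0.647). Coro1a, an actin regulator of leukocytes that neurons also make, and Csf2ra, a cytokine receptor chain, fell by 0.22 and 0.37 on the log2 scale. The number of pan-myeloid genes called higher was 5 without intact replicate 1, 12 without deleted replicate 4 and 4 without deleted replicates 2 and 3.

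**Figure D3:**
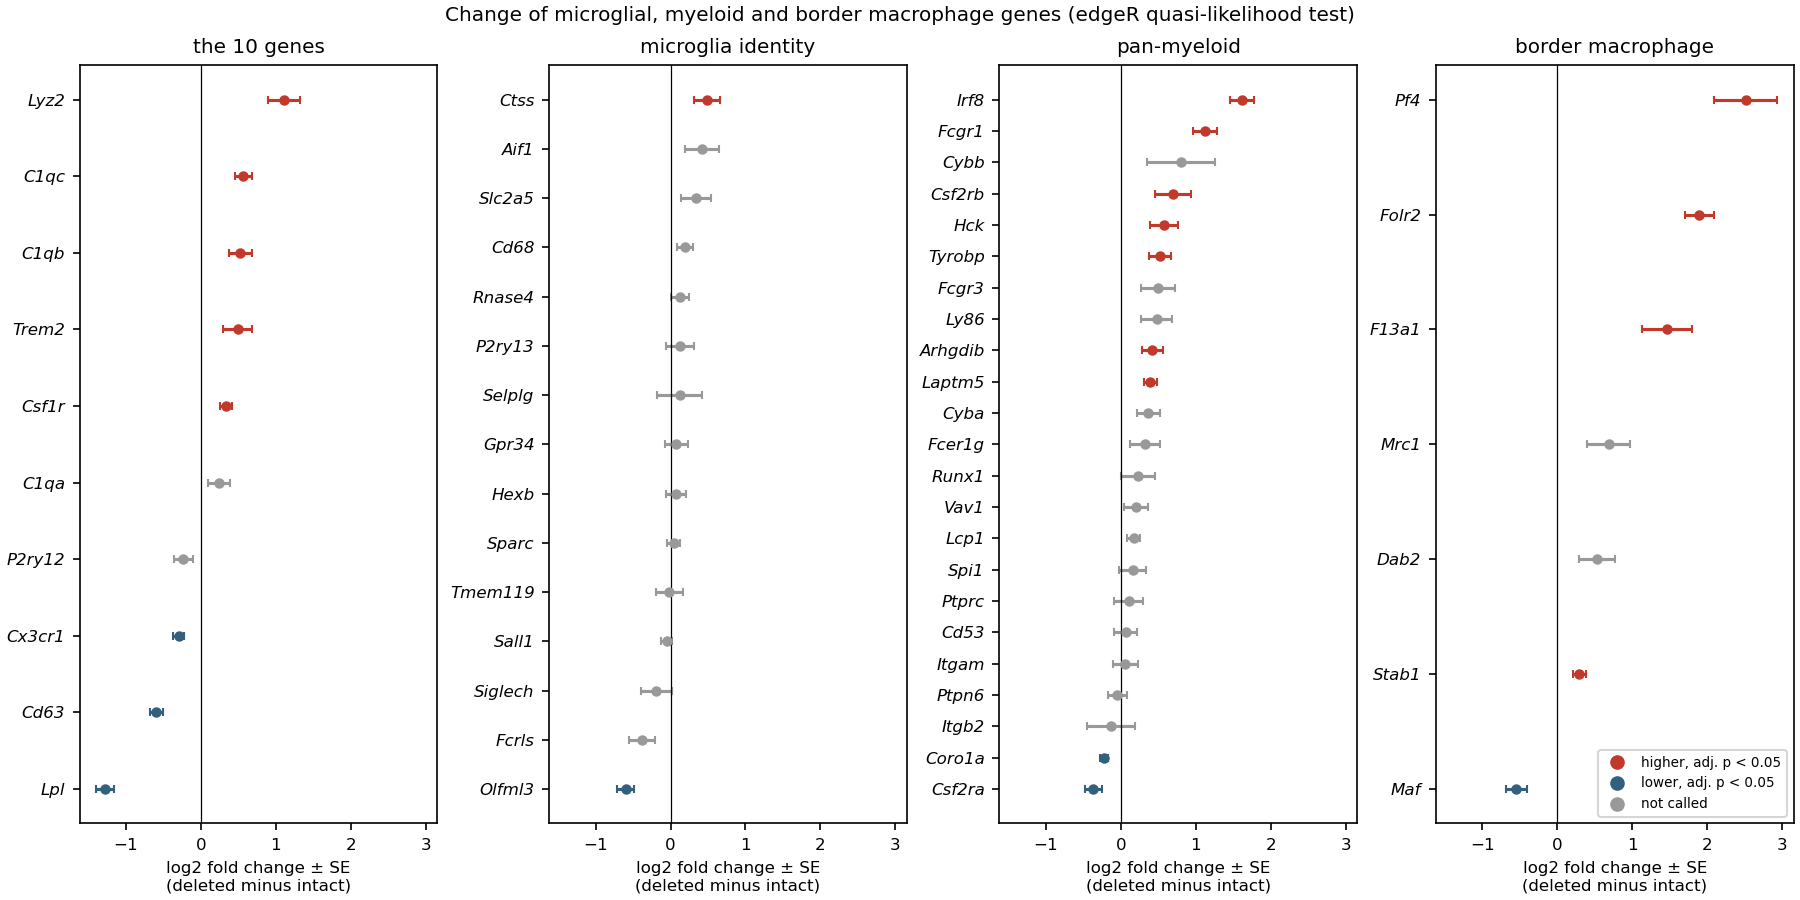
Log2 fold changes, deleted minus intact, with bars of 1 SE from edgeR's quasi-likelihood test, for the 10 genes, 15 microglia identity genes, 23 of the 24 tested pan-myeloid genes and 7 border macrophage genes. Colours mark genes called higher, lower or not called at an adjusted p of 0.05: the 10 genes spread from Lpl at -1.28 to Lyz2 at 1.11, and 13 of the 15 identity genes are not called.

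Of 13 genes of border macrophages 7 were tested: 4 rose, 1 fell and 2 did not pass, beside 30.6% of all genes tested called higher and 32.9% lower, with a median log2 fold change of 0.68. Folr2, a folate receptor of resident macrophages, rose to 1.22 ± 0.187 CPM in the deleted cortices, against 0.326 ± 0.0218 CPM in the intact ones (SD, n = 4 each, edgeR adjusted p = 4.08e-06), although 975 of its 1546 annotated exonic bases overlap an antisense gene model. Pf4, a chemokine of platelets and border macrophages, had 12, 26, 26 and 15 counts in the deleted libraries, against 2, 2, 3 and 6 in the intact ones (edgeR adjusted p = 0.000236). Pf4 passed the low-count filter in the deleted libraries alone. It thus entered the count of genes that rose and the median only through the group where it was high. F13a1, a coagulation factor subunit of such macrophages, had 0.876, 1.59, 2.73 and 1.07 CPM in the deleted cortices, against 0.581, 0.566, 0.511 and 0.617 CPM in the intact ones (edgeR adjusted p = 0.00248). Stab1, a scavenger receptor, rose by 0.29 ± 0.09 on the log2 scale, and Maf, a transcription factor that neurons also make, fell by 0.55 ± 0.14. Mrc1, the mannose receptor, had a log2 fold change of 0.68 ± 0.28 (adjusted p = 0.0567). Lyve1, a hyaluronan receptor that was too low to be tested, had 10, 32, 32 and 10 counts in the deleted libraries, against 2, 3, 5 and 5 in the intact ones, and Cd209f was at 0 in all 8.

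Border macrophage genes differed in which deleted library was highest. Folr2 had 1.38, 1.02, 1.38 and 1.10 CPM in deleted replicates 1 to 4, whereas F13a1 and Lyve1 were highest in replicates 2 and 3, the libraries with most RNA of meningeal markers. Without Maf, Dab2 and Stab1, which other cells also make, the border macrophage genes summed to 4.69, 7.51, 9.87 and 4.59 CPM in the deleted cortices, against 2.74, 2.50, 3.09 and 3.32 CPM in the intact cortices. Without Nnat, which neurons also make, the meningeal markers summed to 79.6, 132, 164 and 25.7 CPM in the deleted cortices, against 39.6, 38.1, 31.9 and 54.6 CPM in the intact cortices. The genes dropped were chosen after the values were seen. Of 11 meningeal markers tested, Nnat included, 7 rose and 1 fell, beside 30.6% and 32.9% of all genes tested. Only 2 or 3 rose when any of deleted replicates 2 and 3 or intact replicates 1, 2 and 3 was left out. Csf1r, C1qa, C1qb, C1qc, Trem2, Lyz2 and Cd63 were all lowest among the deleted cortices in replicate 4, which had the least meningeal RNA of the 8 libraries. Replicate 4 was also the lowest deleted cortex in the sums of erythroid (183 CPM), endothelial (220 CPM), pericyte (243 CPM) and choroid plexus markers (22.5 CPM). It had the fewest counts of all libraries, 39590959. Which of these goes with the low values was not tested. Cx3cr1, Lpl and Cd63 fell and C1qb, C1qc and Lyz2 rose also without deleted replicates 2 and 3, while the calls of Csf1r and Trem2 were lost and 3 border macrophage genes rose and 0 fell.

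Markers of vessels were mostly called higher, and the calls of erythroid markers depended on which libraries entered the fit. Of 9 erythroid genes tested 4 rose, beside 30.6% of all genes tested called higher. Only 0 to 2 rose when any library other than deleted replicate 4 or intact replicate 4 was left out. Their sums were 183 to 242 CPM in the deleted cortices and 138 to 188 CPM in the intact ones. Of 11 endothelial genes 10 rose, beside the same 30.6%, with sums of 220 to 274 CPM in the deleted cortices and 191 to 201 CPM in the intact ones. Of 9 pericyte genes 8 rose, beside 30.6%, but 4 or 5 when any library other than deleted replicates 1 and 4 was left out. Choroid plexus markers summed to 975, 78.4, 174 and 22.5 CPM in the deleted cortices, against 25.2, 29.0, 30.8 and 324 CPM in the intact ones. None of the 8 was called, beside 63.5% of all genes tested called in either direction. Of 14 genes of monocytes and granulocytes only Prtn3, a protease of granulocytes, reached a testable level, and it rose by 2.07 ± 0.09 on the log2 scale (SE, edgeR adjusted p = 4.45e-09). Of its 1732 annotated exonic bases 159 overlap Plppr3 on the opposite strand, which averaged 352 CPM in the deleted cortices and 378 CPM in the intact ones. Prtn3 averaged 12.9 CPM in the deleted cortices and 3.05 CPM in the intact ones. The others had at most 8 counts in a library, with Ly6c2 and Mmp8 at 0 in all. Of 10 lymphocyte and mast cell genes only Cd79a was tested, at 20 to 22 counts in the deleted libraries and 4 to 10 in the intact ones, and Cd3e and Cd3g were at 0 in all. Cd79a passed the low-count filter in the deleted libraries alone, where it was high. The part of these cells in the changes of the 10 genes was not tested.

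**Figure D4:**
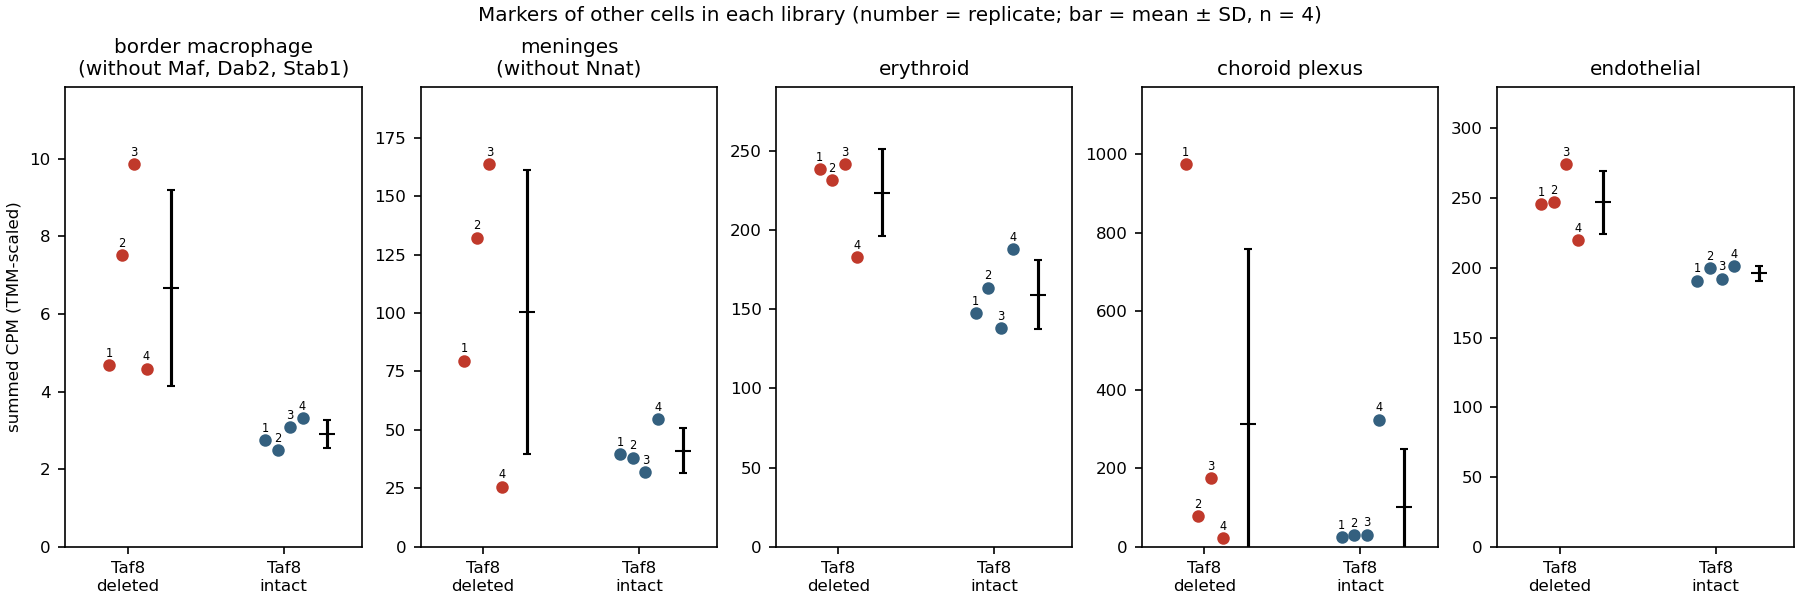
Summed TMM-scaled CPM of marker genes of other cells in each library, on axes that start at 0, with deleted cortices left of intact ones. Points are single embryos with their replicate number, bars are mean and SD of 4 embryos, cut off at 0 where the SD is larger than the mean: deleted replicates 2 and 3 are highest in border macrophage and meningeal markers, and deleted replicate 1 and intact replicate 4 in choroid plexus markers.

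Of 8 ligands that signal to microglia or mark cells for them, 1 rose, 2 fell and 5 did not pass the test, beside 63.5% of all genes tested that were called in either direction. Cx3cl1, fractalkine, the neuronal ligand of CX3CR1, rose to 29.5 ± 2.79 CPM in the deleted cortices, against 18.6 ± 1.69 CPM in the intact ones (SD, n = 4 each), a log2 fold change of 0.67 ± 0.08 (SE, edgeR adjusted p = 1.46e-05). The ligand was higher where its receptor was lower. The ligands of CSF1R did not pass the test, with log2 fold changes of -0.05 ± 0.08 for Csf1 (adjusted p = 0.580) and -0.45 ± 0.29 for Il34 (adjusted p = 0.197). Cd200, a neuronal surface protein that restrains microglia, fell by 0.39 ± 0.07, and Calr, a chaperone that marks dying cells when it reaches the surface, fell by 0.41 ± 0.04. Of the 8, 2 rose without deleted replicate 4, and 2 with upper-quartile factors or library totals alone.

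Of 9 other complement genes tested 2 rose and 5 fell, beside 30.6% and 32.9% of all genes tested. C2, a protease of the classical pathway, rose by 0.90 ± 0.22 on the log2 scale (SE, edgeR adjusted p = 0.00332), although 1656 of its 3872 annotated exonic bases overlap another gene model on the same strand and 161 overlap Zbtb12 on the opposite strand. C3ar1, the receptor for the C3a fragment on myeloid cells, rose by 0.69 ± 0.19 (adjusted p = 0.00721, and 0.120 without deleted replicates 2 and 3). C3, the central component, had only 4 to 14 counts in the deleted libraries and 14 to 20 in the intact ones, and fell (adjusted p = 0.0240), a call lost without deleted replicate 1 or 3 or intact replicate 2. C3 passed the low-count filter in every intact library but not in every deleted one. Serping1, the C1 inhibitor, fell to 6.03 ± 0.682 CPM in the deleted cortices, against 10.5 ± 0.824 CPM in the intact ones (SD, n = 4 each), and Masp1, a protease of the lectin pathway, fell by 0.42 ± 0.04. The classical proteases C1ra and C1s1 were too low to be tested, with at most 4 and 16 counts in a library. The number of complement genes called lower was 3 without deleted replicate 1, deleted replicate 4 or intact replicate 3, and 2 without intact replicate 2.

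Of 22 tested genes for the uptake of dying cells 2 rose and 7 fell, beside 30.6% and 32.9% of all genes tested. The number that rose was 1 without intact replicate 3, 4 with upper-quartile factors and 5 with library totals alone, while 7 fell under both of these scalings. Axl, a receptor tyrosine kinase for phosphatidylserine bridges, rose by 0.26 ± 0.05 (SE, edgeR adjusted p = 0.000937), whereas its relatives Mertk and Tyro3 had log2 fold changes of -0.02 ± 0.17 (adjusted p = 0.932) and -0.25 ± 0.04 (adjusted p = 0.000136). Scarb1, a scavenger receptor, fell by 0.69 ± 0.05, Elmo1, which drives engulfment through RAC1, by 0.50 ± 0.04, and Adgrb1, a phosphatidylserine receptor of neurons and glia, by 0.37 ± 0.04.

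Of 13 tested genes of the lipid-laden phagocytic state of microglia 3 rose and 1 fell, beside 30.6% and 32.9% of all genes tested. Fabp5, a fatty acid carrier, rose by 0.42 ± 0.05 on the log2 scale (SE, edgeR adjusted p = 1.2e-05), and Ctsd and Ctsl, lysosomal proteases, by 0.35 ± 0.07 and 0.33 ± 0.08, although 808 of 2351 exonic bases of Ctsd and 1742 of 6489 of Ctsl overlap other gene models. In the deleted cortices the mean RPKM was 34.8 for Fabp5, 81.5 for Ctsd and 26.0 for Ctsl, beside 2.18 for Cx3cr1. Which cells made this RNA was not tested. Cd9, a tetraspanin like Cd63, fell by 0.39 ± 0.08. Apoe, a lipid carrier, and Spp1, osteopontin, had log2 fold changes of 0.35 ± 0.16 (adjusted p = 0.0781) and 0.53 ± 0.26 (adjusted p = 0.0890). Without deleted replicate 4 the number called higher was 6, without intact replicate 3 it was 5, without deleted replicates 2 and 3 it was 2, and with upper-quartile factors or library totals alone it was 5.

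Of 11 tetraspanins other than Cd63, 4 fell and 1 rose (2 rose without deleted replicate 4), beside 32.9% and 30.6% of all genes tested, with Cd151, a partner of integrins, down by 0.74 ± 0.06 (SE, edgeR adjusted p = 3.37e-07) and Tspan7 down by 0.53 ± 0.03 (adjusted p = 6.88e-08). Of 9 genes that handle lipoprotein lipase and its products 5 fell and 2 rose, beside the same 32.9% and 30.6%. Vldlr, a lipoprotein receptor that also binds reelin, fell by 0.54 ± 0.06 (adjusted p = 4.92e-06). Angptl4, an inhibitor of lipoprotein lipase, rose by 1.07 ± 0.19 (adjusted p = 0.000505), and Lmf1, which matures the enzyme, by 0.46 ± 0.06 (adjusted p = 3.99e-05).

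Of 20 lysosomal genes 7 rose and 5 fell with TMM scaling, beside 30.6% and 32.9% of all genes tested, and 7 rose and 1 fell when libraries were scaled by their totals alone. Man2b1, a lysosomal mannosidase, rose by 0.90 ± 0.06 (SE, edgeR adjusted p = 7.06e-08), and Grn, progranulin, a regulator of lysosomes high in microglia, fell by 0.48 ± 0.07 (adjusted p = 7.62e-05). The number called lower was 3 without deleted replicate 3. Genes of inflammatory cytokines were mostly too low to be tested. Of the 6 of 13 that were, none rose, and Ccl3, a chemokine, fell at low counts, 7 to 11 in the deleted libraries and 13 to 16 in the intact ones (edgeR adjusted p = 0.0440), a call lost in 13 of 19 alternatives, which included leaving out any of 7 of the 8 libraries. Ccl3 too passed the low-count filter in every intact library but not in every deleted one.

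The 6 genes whose calls did not change under any of the 19 alternative settings were Cx3cr1, C1qb, C1qc, Lyz2, Lpl and Cd63. Over these settings the log2 fold change ran from -0.36 to -0.24 for Cx3cr1, from 0.45 to 0.63 for C1qb, from 0.45 to 0.66 for C1qc and from 0.93 to 1.28 for Lyz2. For Lpl it ran from -1.39 to -1.22 and for Cd63 from -0.65 to -0.50.

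**Figure D5:**
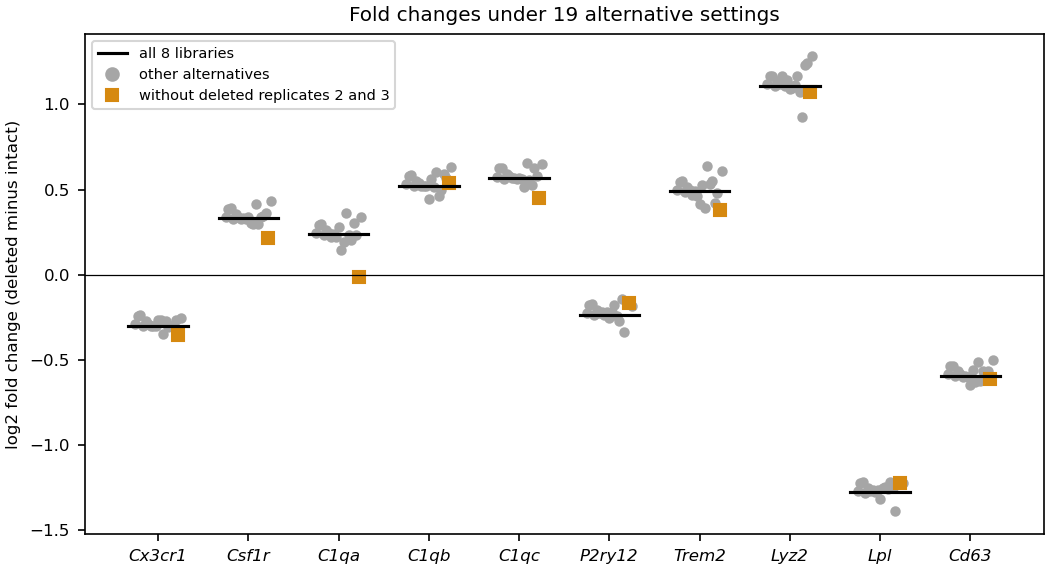
Log2 fold change of each of the 10 genes, deleted minus intact, with all 8 libraries (black bar) and under 19 alternative settings (points), of which the setting without deleted replicates 2 and 3 is a square. C1qa is the gene whose value crosses 0, at -0.02, and the signs of the other 9 hold in all the settings plotted.

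Within groups the 10 genes varied together only in part. The mean deviation of Cx3cr1, Csf1r, C1qa, C1qb, C1qc and P2ry12 from their group means, on the log2 CPM scale, was 0.05, 0.05, 0.10 and -0.19 in deleted replicates 1 to 4, against -0.06, -0.03, 0.02 and 0.07 in intact replicates 1 to 4. Deleted replicate 4 was farthest from its group. The Pearson correlation of each gene with that mean over the 8 libraries was 0.98 for Csf1r, 0.86 for C1qc, 0.78 for C1qa and 0.74 for C1qb, but 0.49 for Cx3cr1 and -0.12 for P2ry12, although all 6 form the mean. Among the genes outside it, the correlation was 0.78 for Cd63, 0.65 for Trem2, 0.43 for Lyz2 and -0.05 for Lpl. The libraries share depth, scaling and tissue makeup, and 8 of them allow only a description.

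Of 13993 genes compared, those whose deviations were most like that mean were Zc3hav1 at a correlation of 0.995, P3h4 at 0.987, Nectin2 at 0.980, Adcy3 and Tpbg at 0.976, Hba-a2 at 0.973, Tprgl at 0.972, B2m at 0.969, Cant1 at 0.967 and Col23a1 at 0.966. None of these 10 is on the list of microglia identity or pan-myeloid genes. Hba-a2, an alpha globin, had 61.2, 56.0, 59.9 and 34.4 CPM in the deleted cortices, against 34.0, 34.6, 38.5 and 40.3 CPM in the intact cortices. B2m, the light chain of MHC class I, had 18.9, 19.3, 22.9 and 13.6 CPM in the deleted cortices, against 9.53, 9.52, 11.2 and 12.1 CPM in the intact ones. In both genes deleted replicate 4 was the lowest of the deleted cortices and intact replicate 4 the highest of the intact ones. The mean by which they were picked had the same lowest deleted and highest intact library. The pattern of both genes thus follows from that choice.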

How the data were processed

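RNA isolated with an RNeasy kit was made into unstranded TruSeq version 2 libraries and sequenced, per the labels' protocols. The deposited values are counts per gene, whole numbers that were not normalised. The authors also deposited the length of each gene in bases, used here for RPKM. The submitters' processing notes name bcl2fastq 1.8.4, Subread 1.5.0, featureCounts and build mm10. How the authors counted reads that map to several places is not stated. The 8 per-embryo files were identical to the columns of the matrix, and no column was left unused.

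Symbols and positions came from RefSeq on GRCm38.p6, the assembly behind mm10, matched for 25275 of 27179 identifiers. The other 1904 stayed in totals and tests and held 0.490% to 1.639% of the counts of a library. Exons shared with other genes came from GENCODE M21.

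Genes with low counts were filtered with filterByExpr, TMM factors were computed, and edgeR 4.0.16 in R 4.3.3 fitted a robust quasi-likelihood model to the 8 libraries with genotype as the only term. The biological coefficient of variation was 7.571%. Log2 CPM used a prior count of 2. The procedure was tested on simulated data for this comparison, where it recovered 97% of 200 genes changed 2-fold among 16074. In that simulation few genes changed and all genes had the same dispersion, whereas 63.5% of the genes tested here were called. The rate thus holds for that setting and does not cover changes smaller than 2-fold. Limits from counts cover counting error only, and 3 counts, the limit that a count of 0 allows, are 0.0670 to 0.0758 CPM. The labels say that each library came from its own embryo, and no 2 libraries agreed within sampling noise (chi-square per gene 4.222 to 14.633 within groups).

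The 10 genes and the 20 lists beside them were chosen with earlier results of these data known. Genes named were the 10, up to 4 tested genes with the smallest p in each list plus up to 2 called in the opposite direction, Taf8, and the 10 genes most like the mean of 6 core genes. Values of 2 genes under this rule are not reported here. Tmem119, Gpr34, P2ry13, Siglech, Tyrobp, Spi1, Ptprc, Stab1, Mrc1, Lyve1, Csf1, Il34, Mertk, Apoe, Spp1, C1ra and C1s1 were named outside that rule after their values were seen. Alternatives were other size factors and filters, DESeq2 1.42.0, limma 3.58.1 with voom, no robust estimation, a replicate block and leaving out libraries.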

Additional observations from a re-analysis of the deposited data

Results flagged for a closer look

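In 18 of 206 groups of 4 libraries, for the 103 genes covered by the naming rule, the highest or lowest library stood apart from the other 3 by Dixon's criterion. Chance alone flags about 1 in 20 groups. No explanation was tested for any of them.

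Of the 10 genes, Lpl stood apart in deleted replicate 1, at 12.5 CPM against 10.8 to 11.0 CPM in the other deleted cortices, and Cx3cr1 in deleted replicate 3, at 9.15 CPM against 7.71 to 7.83 CPM. Among myeloid and border macrophage genes, Irf8 was 3.42 CPM in deleted replicate 4, against 4.76 to 4.89 CPM in the other deleted cortices, and Maf was 19.6 CPM in intact replicate 2, against 23.4 to 23.6 CPM in the other intact ones.

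Deleted replicate 4 also stood apart in Prtn3 at 11.4 CPM (13.2 to 13.4 CPM in the other deleted cortices), Pax6, a transcription factor of neural progenitors, at 180.4 CPM (153 to 157 CPM), P3h4 at 4.29 CPM (5.60 to 5.72 CPM) and Adcy3 at 21.3 CPM (22.9 to 23.0 CPM). P3h4 and Adcy3 were named for their likeness to a mean that was itself lowest in deleted replicate 4. Their low values there thus follow from that choice. Other deleted cortices that stood apart were replicate 3 in Pax2 at 0.136 CPM, and replicate 1 in Cd79a at 0.460 CPM and in Nnat at 3164 CPM.

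Intact replicate 4 stood apart in the choroid plexus genes Folr1 at 3.87 CPM (0.256 to 0.462 CPM in the other intact cortices), Clic6 at 19.5 CPM (1.23 to 1.92 CPM) and Aqp1 at 7.26 CPM (0.707 to 0.998 CPM), in the meningeal collagen gene Col1a2 at 7.02 CPM (2.87 to 3.56 CPM) and in the pericyte gene Abcc9 at 22.4 CPM (24.8 to 25.1 CPM). Intact replicate 3 stood apart in the uptake genes Elmo1 at 93.8 CPM (85.2 to 86.4 CPM in the other intact cortices) and Tyro3 at 64.4 CPM (69.2 to 70.0 CPM).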

How the results depend on the processing

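Of 19 alternatives, all left the number of the 10 genes called lower at 3 or 4, and 18 left the number called higher within 4 to 6. Without deleted replicates 2 and 3 the number called higher was 3, and the number of microglia identity and pan-myeloid genes called was 6 in place of 12, where 2 fewer libraries entered the fit. There C1qa turned to a log2 fold change of -0.0157. Leaving out 1 library at a time gave 4 to 6 of the 10 genes called higher, 3 to 4 called lower, 8 to 17 identity and pan-myeloid genes called, and 9586 to 10127 of all genes called. Without intact replicate 4 and deleted replicate 4, C1qa passed the test at 0.34 (edgeR adjusted p = 0.0485). With voom Trem2 missed the threshold (limma adjusted p = 0.0580).

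The replicate numbers did not pair the samples: deviations of same-numbered embryos had correlations of -0.229, 0.005, 0 and -0.455. With the replicate number as a block, 4 of the 10 genes were called higher and 3 lower, 11 identity and pan-myeloid genes were called, and 9665 of all genes were called. Trem2 then missed the threshold (edgeR adjusted p = 0.0691). Scaling by library totals alone called 5894 genes higher and 4416 lower, against 4919 and 5290 with TMM, and left every call among the 10 genes in place. Depth limits Lyz2, Trem2 and C1qb most, the genes with the fewest counts and the largest SE of the 10.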
